A study of Homo sapiens with 12 samples.

Results

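The nuclear receptors described here are 33 genes that encode ligand-regulated or orphan transcription factors of 1 superfamily, taken by gene symbol from 20293 genes listed for at least 1 of 2 human cell lines. Of the 33, 31 were listed in HepG2 and 33 in Huh7. NR4A2 and ESR1 were the members not listed in HepG2. Messenger RNA was sequenced from both lines, which the labels describe as hepatocellular carcinoma cells of wild-type genotype, grown in low-glucose DMEM with serum. The cells carried either an siRNA against UBL5, a ubiquitin-like protein associated with pre-mRNA splicing, or a non-targeting Ctrl-siRNA. Both were delivered with Lipofectamine RNAiMAX, and the cells were labelled with a time of 52 hours. A figure legend of the study gives a shorter time between transfection and RNA isolation. The 4 groups were UBL5 siRNA HepG2, Ctrl-siRNA HepG2, UBL5 siRNA Huh7 and Ctrl-siRNA Huh7 cells, with 3 libraries in each. The study asked which genes change when UBL5 is silenced. Transient transfection silences a population of cells and not a clone, and nothing in the labels says whether the 3 libraries of a group came from separate cultures, so that a p-value here reflects variation among those libraries only, which may be technical.

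Nuclear receptors bind short DNA elements related to the hexamer AGGTCA and switch genes on or off by exchanging corepressors for coactivators when a small lipophilic ligand binds. Steroid receptors act mostly as homodimers, whereas receptors for bile acids, oxysterols, fatty acids, retinoids, thyroid hormone, vitamin D and xenobiotics share the retinoid X receptors as partners. In hepatocytes this network sets bile acid synthesis, lipid oxidation, drug clearance, glucose output and the coupling of metabolism to the clock.

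UBL5 itself was the first check of the labels. UBL5 (ENSG00000198258, chr19:9827892-9830115, plus strand, GRCh38) had 6.88, 4.31 and 2.8 CPM (counts scaled to a common library size by TMM) in UBL5 siRNA HepG2 cells, against 60.4, 55.5 and 58.7 CPM in Ctrl-siRNA HepG2 cells. In Huh7 it had 6.45, 6.67 and 5.8 CPM with UBL5 siRNA, against 68.1, 70.8 and 67.1 CPM with Ctrl-siRNA. Silenced and control libraries were far apart in both lines. The total counts ran between 19983681 and 29744471 in HepG2 and between 19469574 and 27158770 in Huh7. One library stood apart, Ctrl-siRNA HepG2 replicate 3, in which 1773 listed genes had no count, against 159 to 233 in the other HepG2 libraries. The column headers of both HepG2 replicate 3 libraries also differ in form from the rest. The biological coefficient of variation was 0.189 in HepG2 and 0.0663 in Huh7, so that a change of a given size was harder to call in HepG2. All 11 hepatocyte markers of a fixed list were listed in both lines, summing to 52692 to 62310 CPM with UBL5 siRNA and 55697 to 60720 CPM with Ctrl-siRNA in HepG2, and to 30709 to 31137 and 29253 to 30696 CPM in Huh7. Of 7 leukocyte markers, 3 were listed in HepG2 (LYZ among them, summing to 981 to 1256 CPM with UBL5 siRNA and 1637 to 2193 CPM with Ctrl-siRNA) and LYZ alone in Huh7 (334 to 350 and 562 to 577 CPM), while PTPRC, CD68, LST1 and CD3E were unlisted in both. Of 6 endothelial markers, 3 were listed in HepG2 (4.85 to 8.99 and 3.87 to 7.41 CPM) and 1 in Huh7 (0.0493 to 0.65 and 0.0501 to 0.668 CPM), with VWF, KDR and EMCN unlisted in both. The part of these markers in the receptor results was not tested.

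The first comparison was of the receptors in control cells, HepG2 over Huh7, to show where each one was expressed. Of 31 members tested, 22 differed between the lines at an adjusted p under 0.05 (edgeR quasi-likelihood test, Benjamini-Hochberg over all genes), 9 higher and 13 lower in HepG2. The 13 include NR3C2 and RARB, which were too low to be tested in HepG2 alone and entered this fit through their Huh7 counts. Over all genes 63.7% were called (31.7% higher and 32% lower), and over protein-coding genes 71.9%, so the 71% of the members stood near the background. In these bulk libraries, fewer cells of a type and less RNA per cell cannot be told apart. NR1I2 (PXR, the xenobiotic sensor that controls drug-metabolising enzymes) was 56.2-fold higher in HepG2 than in Huh7 (log2 5.81 ± 0.238 SE, adjusted p = 1.05e-10). NR0B2 (SHP, a receptor without a DNA-binding domain that represses bile acid synthesis) was 8.03-fold higher in HepG2 (log2 3.0 ± 0.152, adjusted p = 7.75e-10). NR1D1 (Rev-erb alpha, the heme-binding repressor of the clock) was 4.88-fold higher in HepG2 (log2 2.29 ± 0.293, adjusted p = 1.01e-05). In the other direction, NR5A2 (LRH-1, the orphan receptor that activates bile acid and steroid genes) was 9.97-fold higher in Huh7 than in HepG2 (log2 HepG2 over Huh7 -3.32 ± 0.106, adjusted p = 9.38e-12). NR2F1 (COUP-TFI, an orphan receptor of development) and NR1H4 (FXR, the bile acid receptor) were also lower in HepG2, with log2 differences of -1.38 ± 0.132 and -1.03 ± 0.0788.

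Per kb of exon, NR0B2 had the highest level of the 31 in control HepG2 cells, 185 ± 32.7 CPM per kb (SD, n = 3), above NR6A1 at 23 ± 1.32 and NR1H4 at 19.2 ± 1.44. In control Huh7 cells NR1H4 came first at 39.3 ± 0.295 CPM per kb, followed by NR0B2 at 23.2 ± 4.99 and NR6A1 at 21.4 ± 1.08. The order of NR0B2 and NR6A1 in Huh7 lay within the spread of the libraries. At the low end in HepG2, RARB and NR3C2 averaged 0.0521 ± 0.0482 and 0.0542 ± 0.0478 CPM per kb. Their SDs were nearly as large as their means, and their order was not resolved. NR1I2 was the lowest in Huh7, 0.0578 ± 0.0132 CPM per kb, below VDR at 0.146 ± 0.0605.

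**Figure D1:**
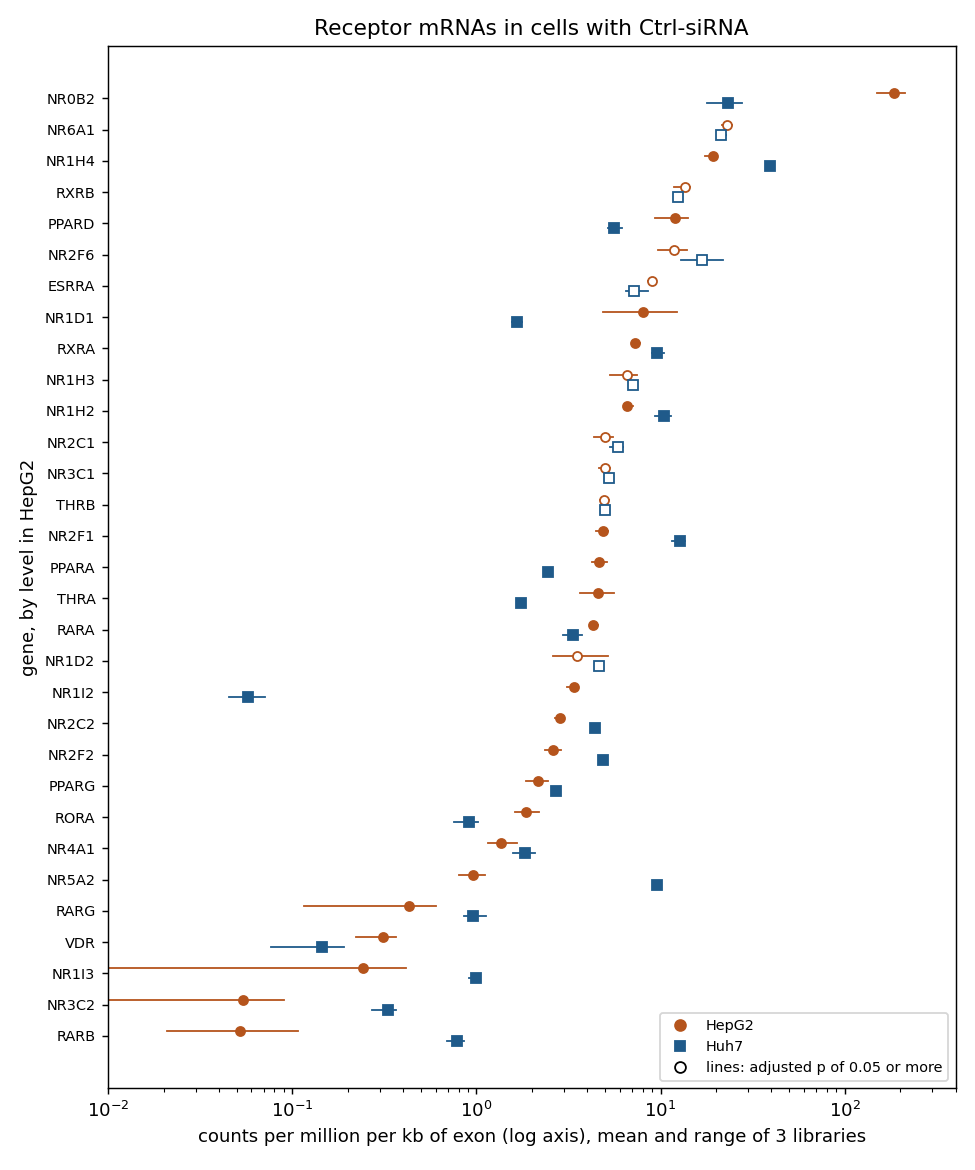
Level of each of the 31 receptor mRNAs listed for both lines in Ctrl-siRNA cells, in CPM per kb of exon on a log axis, with the mean (symbol) and range (line) of 3 libraries for HepG2 (circles) and Huh7 (squares). Filled symbols mark genes that differed between the lines, and lines that reach the left edge include a library without a count. NR0B2 lies at 185 in HepG2 and 23.2 in Huh7, while NR5A2 lies at 0.957 in HepG2 and 9.57 in Huh7.

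The promoters of the members were searched for the core element, because receptors of most classes bind it or a relative of it. RefSeq promoter sequences (GRCh38.p14) matched 29 of the 33 members, those not matched being NR0B2, NR2F6, NR4A2 and VDR. In the 250 bases before the RefSeq start, AGGTCA was found on either strand in 5 of 29 members (17.2%), against 12.1% of 27305 promoters. The 30-base windows around it, written 5′ to 3′ on the strand of the gene with the element in capitals, are shown for members whose response to the siRNA differed between the lines.
NR5A2 (chr1:200027614-200027643, plus strand): atggtttacagcAGGTCActaatgttggaa
RARA (chr17:40308938-40308967, plus strand): ttctcctgtttcAGGTCAtcctatcctcga
PPARG (chr3:12287139-12287168, plus strand): cccactttggacAGGTCAcgatggacagcg
PPARG (chr3:12287172-12287201, plus strand): caggaaaagaaaAGGTCActgtctacccaa
NR1H4 (chr12:100503118-100503147, plus strand): gagcatggcactTGACCTccaagtccagtt
In NR1H4 the element was on the opposite strand and reads TGACCT here. PPARG held the element in 2 places, 217 and 184 bases before its start. NR1H3 was the remaining member with the element, there as part of TAGGTCA, the longer form bound by monomeric Rev-erb and ROR receptors, which overlaps AGGTCA and stood in 1 of 29 members (3.45%) and in 1.64% of all promoters. The extended element CAAGGNCA, which NR5A2 and estrogen-related receptors bind, was found in 0 of 29 members and in 4.61% of all promoters. The E-box CACGTG, bound by clock activators, was in NR2C1 and NR2F2 (6.9% of 29 members) and in 6.49% of all promoters. The RefSeq starts of NR5A2, NR1H4 and NR2F2 lie inside the gene as GENCODE draws it, so their windows are within that gene and upstream of the RefSeq start only. These matches are descriptions of the letters and not of bound sites.

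With UBL5 siRNA, receptors moved in both directions in both lines, and the lines differed in which ones. In HepG2, 8 of the 29 members tested were called, 3 higher (NR1I2, NR3C1 and RARA) and 5 lower (NR5A2, NR0B2, PPARA, VDR and RORA). That is 27.6% of the members, against 36.7% of all 15755 genes tested (16.5% higher and 20.1% lower). NR3C2 and RARB were listed but too low to be tested. In Huh7, 25 of 33 members were called, 14 higher and 11 lower, or 75.8% against 71.3% of all 16965 genes tested (34.9% higher and 36.4% lower). Of those called, NR3C2 and NR1I2 passed the filter on low counts in Huh7 through a single siRNA group. The background over protein-coding genes alone was 43% in HepG2 and 76.1% in Huh7. The share of members called was thus below the background in HepG2 and close to it in Huh7. Their median log2 fold change was -0.01 in HepG2 and -0.03 in Huh7, against 0.01 and -0.01 over all genes tested. The values of the UBL5 siRNA and Ctrl-siRNA libraries did not overlap for 10 of 29 members in HepG2, where 53% of all genes did not, and for 25 of 33 members in Huh7, where 73.9% of all genes did not. The HepG2 count rested partly on single libraries: it was 5 without Ctrl-siRNA replicate 2 or without UBL5 siRNA replicate 2, and 12 without Ctrl-siRNA replicate 3. The share of all genes called moved the same way, to 26.9%, 23.7% and 45% in those fits, from 36.7%.

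Among the 29 members tested in both lines, RARA and NR1I2 rose in both and PPARA and RORA fell in both, 4 in all, where 30.9% of all genes tested in both lines were called in one direction. Another 3 members, NR5A2, NR0B2 and VDR, were called in opposite directions, lower in HepG2 and higher in Huh7, where 2.27% of all genes were called in opposite directions. NR3C1 was called in HepG2 alone, 14 members in Huh7 alone and 7 in neither.

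**Figure D2:**
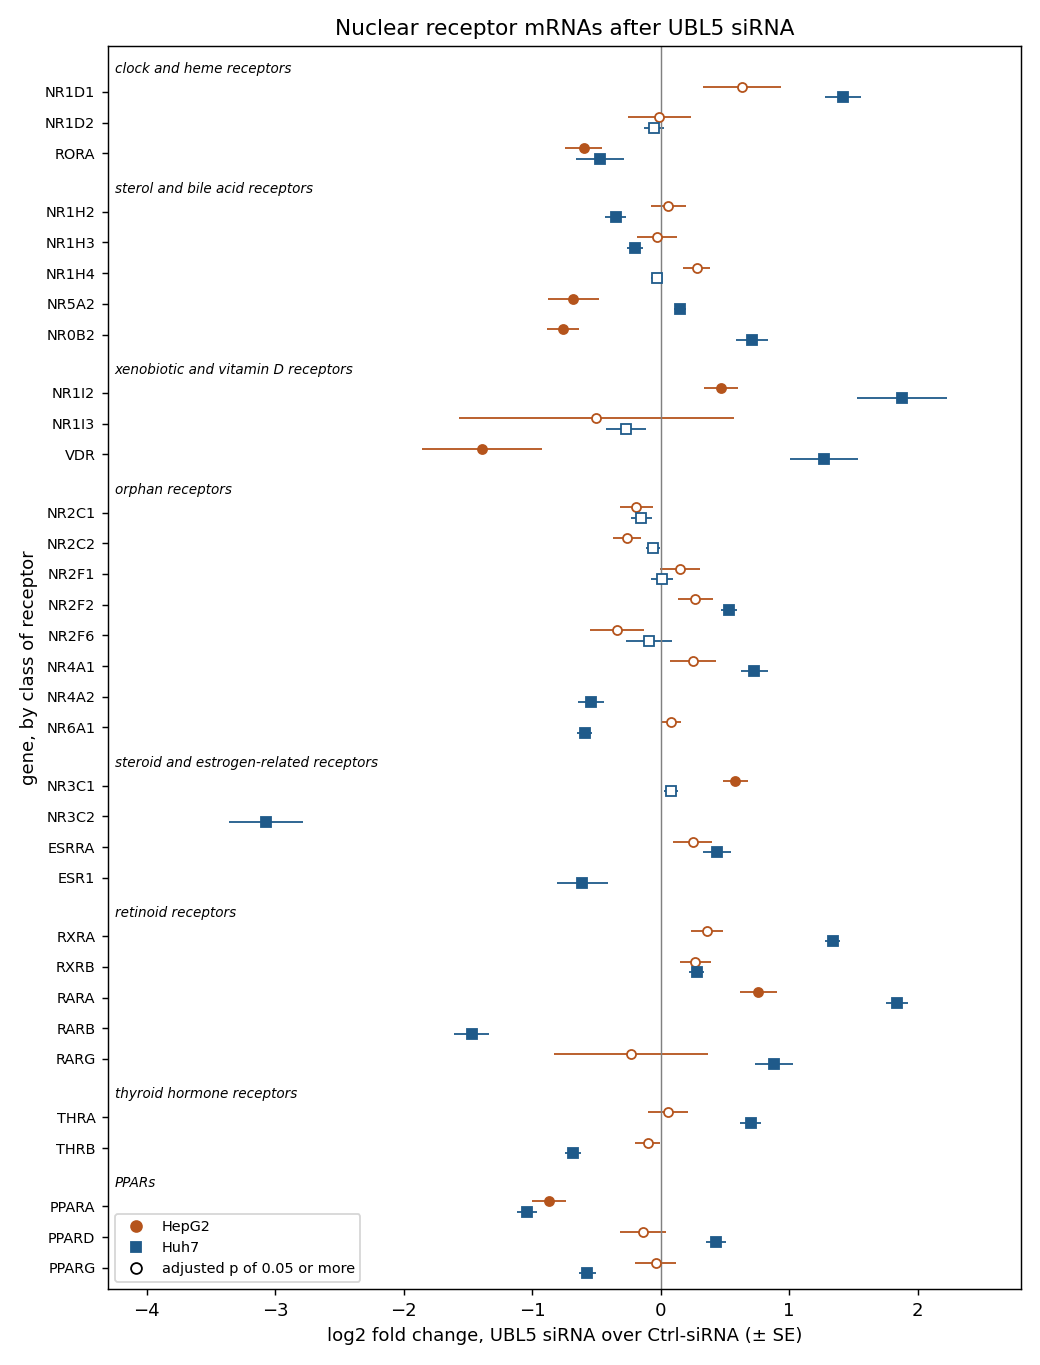
Log2 fold change of each receptor mRNA, UBL5 siRNA over Ctrl-siRNA, with its standard error, in HepG2 (circles) and Huh7 (squares), ordered by class of receptor. Filled symbols passed an adjusted p of 0.05. RARA lies at 0.76 in HepG2 and 1.84 in Huh7, while NR0B2 lies at -0.76 in HepG2 and 0.71 in Huh7.

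Of the retinoid receptors, 1 of 4 tested rose in HepG2, where 36.7% of all genes were called, and 4 of 5 rose and 1 fell in Huh7, where 71.3% were called. RARA (ENSG00000131759, chr17:40309180-40357643, plus strand), the retinoic acid receptor alpha, had 32.6, 38.9 and 27.5 CPM in UBL5 siRNA HepG2 cells, against 20.8, 19 and 18.6 CPM in Ctrl-siRNA HepG2 cells. Huh7 cells had 55.8, 56.9 and 60.2 CPM with UBL5 siRNA, against 14.2, 18.1 and 16 CPM with Ctrl-siRNA. The groups did not overlap in either line, and the gap was wider in Huh7. RARA rose 1.7-fold in HepG2 (log2 0.76 ± 0.145 SE, adjusted p = 0.00383) and 3.59-fold in Huh7 (log2 1.84 ± 0.0849, adjusted p = 7.36e-09). Of its exon bases, 21.4% are shared with other genes on either strand, most of all with the antisense gene RARA-AS1. The strand setting of the counting was not named.

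RXRA (ENSG00000186350, chr9:134317098-134440585, plus strand), the obligate partner of many other members, had 116, 117 and 87.7 CPM in UBL5 siRNA HepG2 cells, against 81.8, 89.7 and 79.7 CPM in Ctrl-siRNA HepG2 cells. UBL5 siRNA replicate 3 fell among the HepG2 controls, and the log2 fold change of 0.36 ± 0.124 had an adjusted p of 0.0514. With the replicate number as a block the value was 0.34 with an adjusted p of 0.0212, and without UBL5 siRNA replicate 3 it was 0.50 with 0.00649. Huh7 cells had 291, 308 and 300 CPM of RXRA with UBL5 siRNA, against 111, 116 and 129 CPM with Ctrl-siRNA. It rose 2.53-fold there (log2 1.34 ± 0.0586, adjusted p = 5.06e-09), with all 3 silenced libraries above every control library. RXRB, a second retinoid X receptor, had a log2 fold change of 0.27 in HepG2 (adjusted p = 0.118) and rose slightly in Huh7 (0.28 ± 0.0565, adjusted p = 0.000958).

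RARG (retinoic acid receptor gamma) had few counts in HepG2, 55, 44 and 22 with UBL5 siRNA and 74, 71 and 17 with Ctrl-siRNA, the last being the replicate that stands apart, and its log2 fold change there was -0.23 ± 0.597. Its Huh7 libraries had 10.8, 9.11 and 7.94 CPM with UBL5 siRNA, against 5.9, 4.5 and 4.66 CPM with Ctrl-siRNA, and RARG rose 1.83-fold there (log2 0.88 ± 0.149, adjusted p = 0.000245). RARB (retinoic acid receptor beta, itself a classic retinoic acid target) was too low to be tested in HepG2, with 1, 1 and 5 counts under UBL5 siRNA and 5, 6 and 29 under Ctrl-siRNA, the 29 being in the same replicate. It went the other way in Huh7, with 2.86, 2.69 and 2.69 CPM in UBL5 siRNA cells, against 8.28, 6.68 and 7.82 CPM in Ctrl-siRNA cells (log2 -1.47 ± 0.135, adjusted p = 1.63e-06).

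Of 11 retinoic acid receptor targets, 6 were tested in HepG2, where 1 was higher and 1 lower with a median log2 fold change of 0.18, and 10 in Huh7, where 3 were higher and 6 lower with a median of -1.04. Called targets made up 33.3% in HepG2 and 90% in Huh7, against 36.7% and 71.3% of all genes. NRIP1, a ligand-dependent corepressor, fell in both lines (log2 -1.01 in HepG2 and -1.22 in Huh7, adjusted p = 0.000512 and 1.68e-07). RARB, described above, is itself in that list.

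**Figure D3:**
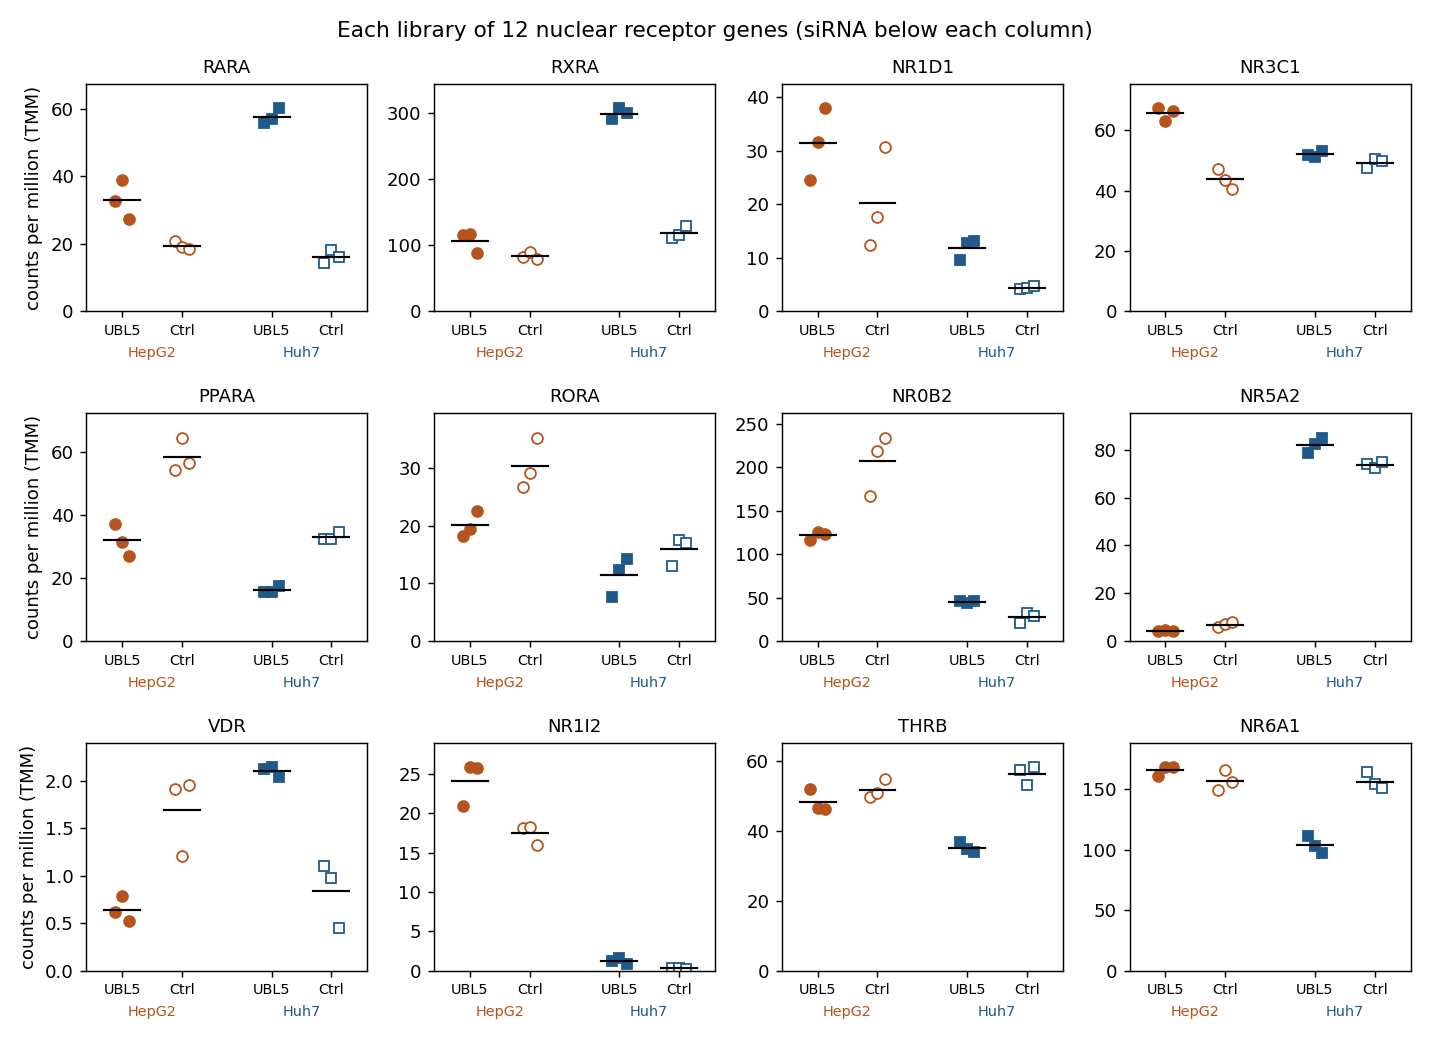
CPM of 12 receptor genes in each library, with UBL5 siRNA cells (filled) left of Ctrl-siRNA cells (open) for HepG2 (circles) and Huh7 (squares), and a bar at each mean. Every axis starts at 0. RXRA is at 291 to 308 CPM in UBL5 siRNA Huh7 cells and at 111 to 129 CPM in Ctrl-siRNA Huh7 cells, and NR0B2 is lower with UBL5 siRNA in HepG2 and higher in Huh7.

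Of the 3 receptors of the clock, 1 was lower in HepG2, and 1 was higher and 1 lower in Huh7. The shares of all genes called were 36.7% in HepG2 and 71.3% in Huh7. NR1D1 (ENSG00000126368, chr17:40092793-40100589, minus strand), the Rev-erb alpha repressor, had 24.5, 31.7 and 38 CPM in UBL5 siRNA HepG2 cells, against 12.4, 17.7 and 30.7 CPM in Ctrl-siRNA HepG2 cells. Within each replicate number the UBL5 siRNA library was the higher, but Ctrl-siRNA replicate 3 overlapped the silenced group, and the log2 fold change of 0.63 ± 0.304 had an adjusted p of 0.14. With the replicate number as a block it was 0.70 with an adjusted p of 0.00916, and without Ctrl-siRNA replicate 3 it was 1.06 with 0.00313. Huh7 cells had 9.66, 12.7 and 13.2 CPM with UBL5 siRNA, against 4.16, 4.41 and 4.81 CPM with Ctrl-siRNA, and NR1D1 rose 2.67-fold there (log2 1.42 ± 0.139, adjusted p = 2.81e-06) with no overlap. NR1D1 overlaps THRA on the opposite strand over 17.98% of its exon bases.

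NR1D2 (Rev-erb beta) did not pass in either line, with log2 fold changes of -0.01 ± 0.244 in HepG2 and -0.05 ± 0.0784 in Huh7. RORA, the activator that competes with the Rev-erb proteins for the same elements, had 18.3, 19.4 and 22.6 CPM in UBL5 siRNA HepG2 cells, against 26.7, 29.1 and 35.3 CPM in Ctrl-siRNA HepG2 cells. In Huh7 it had 7.74, 12.3 and 14.3 CPM with UBL5 siRNA, against 13.1, 17.6 and 17 CPM with Ctrl-siRNA. RORA fell by 0.60 ± 0.145 on the log2 scale in HepG2 (adjusted p = 0.0117), where the groups did not overlap, and by 0.47 ± 0.186 in Huh7 (adjusted p = 0.0412), where they did. The HepG2 call was lost without UBL5 siRNA replicate 2 (-0.54, adjusted p = 0.0691). The Huh7 call was lost when Ctrl-siRNA replicate 2 (-0.38, adjusted p = 0.139) or 3 (-0.42, 0.0766) or UBL5 siRNA replicate 1 (-0.24, 0.148) or 2 (-0.51, 0.0671) was left out, and in the fit over all 12 libraries (-0.49, 0.0518).

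Among 18 clock partners, 17 were tested in each line, with 5 higher and 4 lower in HepG2 and 8 higher and 5 lower in Huh7. That is 52.9% and 76.5% of them, against 36.7% and 71.3% of all genes. The 4 partners with the smallest adjusted p, all among the higher ones, were PER1, PER2, CSNK1E and TEF. PER1, a repressor of the core loop, rose in both lines (log2 1.93 in HepG2 and 1.73 in Huh7, adjusted p = 0.00031 and 1.53e-09), as did PER2 (0.83 and 0.89, adjusted p = 0.00158 and 2.05e-07). The casein kinase CSNK1E, which phosphorylates PER proteins, rose by 0.94 and 0.61 (adjusted p = 0.000597 and 2.63e-07), and the output factor TEF by 0.48 and 1.03 (adjusted p = 0.0259 and 1.72e-06). The medians were 0.24 in HepG2 and 0.12 in Huh7.

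Among the receptors for sterols and bile acids, NR0B2 and NR5A2 moved in opposite directions in the lines. NR0B2 (ENSG00000131910, chr1:26911489-26913975, minus strand) had 116, 126 and 123 CPM in UBL5 siRNA HepG2 cells, against 167, 219 and 234 CPM in Ctrl-siRNA HepG2 cells. Its Huh7 values were 46.1, 43.4 and 45.6 CPM with UBL5 siRNA, against 21.1, 32.8 and 28.9 CPM with Ctrl-siRNA. All silenced libraries lay below the controls in HepG2 and above them in Huh7. NR0B2 fell to 0.589 of its control level in HepG2 (log2 -0.76 ± 0.125, adjusted p = 0.00189) and rose 1.64-fold in Huh7 (log2 0.71 ± 0.125, adjusted p = 0.000308).

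NR5A2 (ENSG00000116833, chr1:200027614-200177420, plus strand), an activator of NR0B2 in the liver, had 4.28, 4.64 and 4.05 CPM in UBL5 siRNA HepG2 cells, against 5.82, 6.99 and 7.91 CPM in Ctrl-siRNA HepG2 cells. Huh7 cells held more of it, with 78.7, 82.4 and 85 CPM under UBL5 siRNA, against 74.2, 72.2 and 74.8 CPM with Ctrl-siRNA. No group overlapped, although the Huh7 difference was small. The log2 fold change was -0.68 ± 0.198 in HepG2 (adjusted p = 0.0266) and 0.15 ± 0.0499 in Huh7 (adjusted p = 0.0158). The HepG2 call was lost without Ctrl-siRNA replicate 2 (-0.67, adjusted p = 0.0782) or any 1 UBL5 siRNA library (-0.66, -0.70 and -0.61 without replicates 1, 2 and 3, adjusted p = 0.0701, 0.0808 and 0.0928). The Huh7 call was lost without Ctrl-siRNA replicate 2 (0.14, adjusted p = 0.0662) and in the fit over all 12 libraries (0.13, adjusted p = 0.248).

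NR1H4 (ENSG00000012504, chr12:100473708-100564414, plus strand), the bile acid receptor FXR that induces NR0B2, had 85.9, 72.1 and 84.2 CPM in UBL5 siRNA HepG2 cells, against 70.8, 61.1 and 67.9 CPM in Ctrl-siRNA HepG2 cells. The groups did not overlap, but the log2 fold change of 0.28 ± 0.105 had an adjusted p of 0.0686. With the replicate number as a block the value was 0.28 with an adjusted p of 0.0209, and without UBL5 siRNA replicate 2 it was 0.38 with 0.0459. In Huh7 its 145, 143 and 138 CPM with UBL5 siRNA lay beside 144, 144 and 148 CPM with Ctrl-siRNA (log2 -0.03 ± 0.0441). The oxysterol receptors NR1H2 and NR1H3 (LXR beta and alpha, which induce cholesterol export and lipogenesis) fell in Huh7 by 0.35 ± 0.0833 and 0.20 ± 0.0597 on the log2 scale (adjusted p = 0.00262 and 0.00925). In HepG2 their log2 fold changes were 0.06 and -0.03. NR1H2 shares 22.13% of its exon bases with other genes on either strand, most of all with NAPSA on the opposite strand.

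Of 11 FXR targets, 9 were tested in HepG2 (2 higher, 2 lower, median 0.32) and 11 in Huh7 (6 higher, 4 lower, median 0.22). The leading ones were the proteoglycan SDC1, which rose in both lines (0.69 in HepG2 and 1.01 in Huh7, adjusted p = 0.000984 and 3.76e-09), and in Huh7 the bile acid exporter subunit SLC51A (1.32, adjusted p = 3.47e-08), the complement protein C3 (-0.76, adjusted p = 1.54e-07) and the apolipoprotein APOC2 (2.03, adjusted p = 2.81e-07), which shares 53.52% of its exon bases with another gene. Of 10 LXR targets, 9 were tested in HepG2 (4 higher, 3 lower, median -0.04) and 10 in Huh7 (5 higher, 4 lower, median 0.17). The desaturase SCD rose in both lines (0.61 and 0.80, adjusted p = 0.00823 and 2.73e-08), whereas ABCG5 and ABCG8, which together form the sterol exporter, fell in both (-0.64 and -0.75 in HepG2, -1.61 and -1.02 in Huh7). The sterol exporter ABCG1 rose in Huh7 (1.41, adjusted p = 2.02e-07). Called FXR targets made up 44.4% in HepG2 and 90.9% in Huh7, and called LXR targets 77.8% and 90%. The shares of all genes called were 36.7% and 71.3%.

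PPARA (ENSG00000186951, chr22:46150521-46243755, plus strand), the fatty acid receptor that drives hepatic lipid oxidation, fell in both lines. It had 37.2, 31.6 and 27.1 CPM in UBL5 siRNA HepG2 cells, against 54.2, 64.6 and 56.6 CPM in Ctrl-siRNA HepG2 cells. Huh7 cells had 15.5, 15.5 and 17.5 CPM with UBL5 siRNA, against 32.3, 32.4 and 34.8 CPM with Ctrl-siRNA. Every silenced library was below every control library of its line. The silenced level was 0.547 of control in HepG2 (log2 -0.87 ± 0.135, adjusted p = 0.00147) and 0.488 in Huh7 (log2 -1.04 ± 0.0754, adjusted p = 2.35e-07). The difference between the lines, 0.19 ± 0.158 on the log2 scale, had an adjusted p of 0.424.

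PPARG, the adipogenic member, had 21.9, 21.4 and 29 CPM in UBL5 siRNA HepG2 cells, which overlapped 21.7, 24.9 and 27.7 CPM in Ctrl-siRNA HepG2 cells (log2 -0.04 ± 0.156). Huh7 cells had 21.1, 21.7 and 23.8 CPM with UBL5 siRNA, against 33, 33.2 and 32.8 CPM with Ctrl-siRNA. The Huh7 groups did not overlap, and PPARG fell there by 0.57 ± 0.0677 on the log2 scale (adjusted p = 1.36e-05). PPARD, the widely expressed member, had a log2 fold change of -0.14 ± 0.179 in HepG2 and rose in Huh7 (0.43 ± 0.075, adjusted p = 0.000282).

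Of 18 PPAR targets, 14 were tested in HepG2, with 2 higher, 4 lower and a median log2 fold change of -0.29, and 16 in Huh7, with 3 higher, 10 lower and a median of -0.42. Called targets made up 42.9% in HepG2 and 81.2% in Huh7, against 36.7% and 71.3% of all genes, whose medians were 0.01 and -0.01. The 4 targets with the smallest adjusted p were all lower in Huh7. Among the 3 higher ones in Huh7 was CPT1A, given below with the thyroid receptor targets. The fatty acid carrier FABP1 fell by 1.05 in HepG2 and 1.60 in Huh7 on the log2 scale (adjusted p = 0.00184 and 5.29e-10). The mitochondrial enzymes ACADVL and CPT2 fell by 0.67 and 0.93 in HepG2 (adjusted p = 0.000893 and 0.00171) and by 1.21 and 1.26 in Huh7 (adjusted p = 1.53e-09 and 7.82e-07). The carnitine carrier SLC25A20 had -0.38 in HepG2 (adjusted p = 0.239) and fell by 1.31 in Huh7 (adjusted p = 5.9e-08).

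The receptors for xenobiotics and vitamin D were near the detection limit in at least 1 line. NR1I2 (ENSG00000144852, chr3:119780484-119818487, plus strand) had 20.9, 25.8 and 25.7 CPM in UBL5 siRNA HepG2 cells, against 18.1, 18.3 and 15.9 CPM in Ctrl-siRNA HepG2 cells. In Huh7 it had 24, 33 and 18 counts with UBL5 siRNA, against 11, 7 and 5 counts with Ctrl-siRNA. There NR1I2 passed the filter on low counts through its UBL5 siRNA libraries alone. The groups did not overlap in either line, though the Huh7 values were a small fraction of those in HepG2. NR1I2 rose 1.39-fold in HepG2 (log2 0.47 ± 0.135, adjusted p = 0.0243) and 3.69-fold in Huh7 (log2 1.88 ± 0.349, adjusted p = 0.000465). The HepG2 call was lost when Ctrl-siRNA replicate 1 (0.50, adjusted p = 0.0554) or 2 (0.51, 0.0558) or UBL5 siRNA replicate 2 (0.45, 0.0835) or 3 (0.45, 0.0623) was left out.

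VDR (ENSG00000111424, chr12:47841537-47943048, minus strand), the vitamin D receptor, had 14, 19 and 10 counts in UBL5 siRNA HepG2 cells, against 50, 29 and 59 counts in Ctrl-siRNA HepG2 cells. The Huh7 libraries had 43, 43 and 44 counts with UBL5 siRNA, against 31, 22 and 9 counts with Ctrl-siRNA. Scaled to CPM the groups did not overlap in either line, and the direction was opposite. The log2 fold change was -1.39 ± 0.469 in HepG2 (adjusted p = 0.0452) and 1.27 ± 0.266 in Huh7 (adjusted p = 0.00116). The HepG2 call did not hold with the replicate number as a block (-1.38, adjusted p = 0.105), without the filter on low counts (-1.37, 0.0504), or without Ctrl-siRNA replicate 1 (-1.30, 0.143) or 2 (-1.58, 0.0655) or UBL5 siRNA replicate 1 (-1.36, 0.123), 2 (-1.54, 0.11) or 3 (-1.25, 0.149). NR1I3 (CAR, the constitutive androstane receptor) was low, with 13, 14 and 8 counts in UBL5 siRNA HepG2 cells and 25, 31 and 0 in Ctrl-siRNA HepG2 cells, the 0 being in the replicate that stands apart. Its log2 fold change was -0.50 ± 1.07 there, and -1.09 with an adjusted p of 0.0254 without that library. In Huh7 it was -0.27 ± 0.154. NR1I3 shares 20.42% of its exon bases with other genes on either strand, most of all with TOMM40L.

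Of 15 PXR and CAR targets, 9 were tested in HepG2 (5 higher, 2 lower, median 0.64) and 10 in Huh7 (5 higher, 1 lower, median 0.28). The glutathione transferase GSTA1 rose by 1.41 in HepG2 and 2.02 in Huh7 (adjusted p = 0.000117 and 3.52e-07). The heme synthesis enzyme ALAS1 rose by 0.90 and 0.93 (adjusted p = 0.000467 and 1.76e-08) and the P450 reductase POR by 0.64 and 1.17 (adjusted p = 0.000363 and 2.29e-08). The sulfotransferase SULT2A1 fell by 0.74 in HepG2 and 1.67 in Huh7 (adjusted p = 0.00215 and 2.25e-09). Of 7 vitamin D receptor targets, 2 were tested in each line. CYP24A1, the vitamin D 24-hydroxylase, rose in HepG2 (log2 2.32, adjusted p = 0.000125) and was not listed in Huh7. The transporter SLC37A2 fell in HepG2 (-1.10, adjusted p = 0.00132) and rose in Huh7 (0.35, adjusted p = 0.0317), and the lipolysis inhibitor G0S2 rose in Huh7 (0.91, adjusted p = 0.00335). Every vitamin D receptor target tested was thus called. Called PXR and CAR targets made up 77.8% in HepG2 and 60% in Huh7, against 36.7% and 71.3% of all genes.

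The thyroid hormone receptors moved apart in Huh7 and overlapped with their controls in HepG2. THRA (chr17:40058290-40093867, plus strand) had 31.7, 35.5 and 33.2 CPM in UBL5 siRNA HepG2 cells, against 25.8, 31.3 and 39.1 CPM in Ctrl-siRNA HepG2 cells (log2 0.06 ± 0.155). THRB (chr3:24117153-24495756, minus strand), the main hepatic form, had 52.1, 46.7 and 46.2 CPM with UBL5 siRNA, against 49.8, 50.8 and 55 CPM with Ctrl-siRNA (log2 -0.10 ± 0.0977). Both pairs of HepG2 groups overlapped. Huh7 cells had 23.3, 20.6 and 20.3 CPM of THRA with UBL5 siRNA, against 13.4, 13.4 and 12.6 CPM with Ctrl-siRNA. They had 37, 34.9 and 33.9 CPM of THRB with UBL5 siRNA, against 57.6, 53.1 and 58.2 CPM with Ctrl-siRNA. Neither pair of Huh7 groups overlapped. THRA rose 1.63-fold (log2 0.70 ± 0.0827, adjusted p = 1.29e-05) and THRB fell to 0.626 of control (log2 -0.68 ± 0.0628, adjusted p = 1.78e-06). THRA shares 6.449% of its exon bases with NR1D1, which also rose in Huh7, and the part of shared bases in either value was not tested.

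Of 10 thyroid receptor targets, 8 were tested in HepG2 (3 higher, 1 lower, median 0.18) and 7 in Huh7 (5 higher, 2 lower, median 0.87). That is 50% and 100% of those tested, against 36.7% and 71.3% of all genes. SERPINA7, the plasma thyroxine carrier, rose by 0.73 in HepG2 and 1.72 in Huh7 (adjusted p = 0.000908 and 1.48e-09). CPT1A, the gate enzyme of mitochondrial lipid oxidation, had -0.25 in HepG2 (adjusted p = 0.175) and rose by 0.87 in Huh7 (adjusted p = 1.21e-06). The corepressor HR rose in Huh7 (2.35, adjusted p = 7.55e-06), and the malic enzyme ME1 fell there (-0.33, adjusted p = 0.000122).

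Among the steroid receptors, NR3C1 (ENSG00000113580, chr5:143277931-143435512, minus strand), the glucocorticoid receptor, was the one member called in HepG2 and not in Huh7. It had 67.3, 62.9 and 66.4 CPM in UBL5 siRNA HepG2 cells, against 47.1, 43.6 and 40.4 CPM in Ctrl-siRNA HepG2 cells. In Huh7 it had 51.9, 51.1 and 53.1 CPM with UBL5 siRNA, against 47.3, 50.5 and 49.7 CPM with Ctrl-siRNA. The HepG2 groups lay well apart, and the Huh7 groups were separated by less than 1 CPM. NR3C1 rose 1.5-fold in HepG2 (log2 0.58 ± 0.0964, adjusted p = 0.00198), and the Huh7 value was 0.08 ± 0.0548 (adjusted p = 0.196). NR3C2, the mineralocorticoid receptor, was not tested in HepG2, with 7, 4 and 4 counts under UBL5 siRNA against 15, 11 and 0 under Ctrl-siRNA. In Huh7 it had 6, 5 and 5 counts with UBL5 siRNA, against 51, 53 and 50 counts with Ctrl-siRNA. There NR3C2 passed the filter on low counts through its Ctrl-siRNA libraries alone. The Huh7 groups were far apart, and NR3C2 fell to 0.119 of control (log2 -3.07 ± 0.287, adjusted p = 1.9e-06).

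ESR1, the estrogen receptor alpha, had 25, 26 and 29 counts in UBL5 siRNA Huh7 cells, against 60, 47 and 33 counts in Ctrl-siRNA Huh7 cells. It fell by 0.61 ± 0.197 on the log2 scale (adjusted p = 0.0157), a call lost with DESeq2 (-0.60, adjusted p = 0.0987) and without Ctrl-siRNA replicate 1 (-0.54, 0.061) or Ctrl-siRNA replicate 2 (-0.57, 0.0503). ESRRA, the estrogen-related receptor that drives mitochondrial genes, had a log2 fold change of 0.25 ± 0.153 in HepG2 (adjusted p = 0.247) and rose in Huh7 (0.44 ± 0.11, adjusted p = 0.00365).

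Of 15 glucocorticoid receptor targets, 14 were tested in HepG2 (4 higher, 4 lower, median 0.11) and 13 in Huh7 (5 higher, 6 lower, median -0.06). PER1, also a clock gene, has been given above. ERRFI1, a feedback inhibitor of growth factor receptors, rose in both lines (0.92 and 0.84, adjusted p = 0.0153 and 4.83e-07), and the metallothionein MT2A fell in both (-1.19 and -1.04, adjusted p = 0.00189 and 5.73e-07). TSC22D3, the glucocorticoid-induced leucine zipper, rose in Huh7 (1.05, adjusted p = 7.1e-07). Of 11 ERR targets, 10 were tested in HepG2 (4 higher, 1 lower, median 0.08) and 11 in Huh7 (5 higher, 3 lower, median -0.01). Citrate synthase, CS, rose in both lines (0.47 and 0.90, adjusted p = 0.00251 and 1.57e-07), VLDLR fell in both (-1.05 and -0.98, adjusted p = 0.00203 and 3.06e-06), and in Huh7 the respiratory subunit COX8A and the acyl-CoA dehydrogenase ACADM fell (-0.74 and -0.62, adjusted p = 3.11e-07 and 6.82e-06). COX8A shares 35.43% of its exon bases with another gene. Called glucocorticoid receptor targets made up 57.1% in HepG2 and 84.6% in Huh7, and called ERR targets 50% and 72.7%. The shares of all genes called were 36.7% and 71.3%.

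For the orphan receptors, the log2 fold changes of the 7 tested in HepG2 lay between -0.34 and 0.27 with adjusted p of 0.096 to 0.502. In Huh7, 4 of 8 were called (50%), below the 71.3% of all genes. NR6A1 (GCNF, a repressor known from germ cells and embryos) was among the highest of all members per kb in both lines. It had 161, 168 and 168 CPM in UBL5 siRNA HepG2 cells, which overlapped 149, 166 and 156 CPM in Ctrl-siRNA HepG2 cells (log2 0.08 ± 0.0791). Huh7 cells had 111, 103 and 96.9 CPM with UBL5 siRNA, against 164, 154 and 151 CPM with Ctrl-siRNA. NR6A1 fell there by 0.59 ± 0.0574 on the log2 scale (adjusted p = 2.49e-06) with no overlap.

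NR4A1, an immediate early receptor without a known hormone, had 20.9, 24.1 and 22.7 CPM in UBL5 siRNA Huh7 cells, against 11.8, 13.6 and 15.5 CPM in Ctrl-siRNA Huh7 cells (log2 0.73 ± 0.104, adjusted p = 5.88e-05). Its close relative NR4A2 moved oppositely, with 7.64, 6.72 and 6.59 CPM in UBL5 siRNA Huh7 cells, against 10.4, 9.94 and 10.2 CPM in Ctrl-siRNA Huh7 cells (log2 -0.54 ± 0.102, adjusted p = 0.000534). NR2F2 (COUP-TFII, a vascular and metabolic regulator) had 44.2, 48.7 and 46.3 CPM with UBL5 siRNA, against 31.5, 31.6 and 33.5 CPM with Ctrl-siRNA (log2 0.53 ± 0.0628, adjusted p = 1.38e-05). None of these 3 pairs of groups overlapped. In HepG2, NR4A1 and NR2F2 had log2 fold changes of 0.25 and 0.27 (adjusted p = 0.318 and 0.167), and NR4A1 reached 0.42 with an adjusted p of 0.0494 without Ctrl-siRNA replicate 3.

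The testicular receptors NR2C1 and NR2C2 had log2 fold changes of -0.19 and -0.26 in HepG2 and -0.15 and -0.06 in Huh7. NR2C1 reached -0.22 with an adjusted p of 0.0454 in Huh7 without Ctrl-siRNA replicate 2, and NR2C2 reached -0.31 with 0.0452 in HepG2 without Ctrl-siRNA replicate 3. NR2C2 shares 61.85% of its exon bases with other genes on either strand, most of all with MRPS25 on the opposite strand, so its values are uncertain. NR2F1 had values of 0.15 in HepG2 and 0.01 in Huh7, and NR2F6 (a repressor known from lymphocytes) had -0.34 and -0.09. With the replicate number as a block, NR2F6 passed in HepG2 (-0.36, adjusted p = 0.0366).

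The siRNA effect itself was compared between the lines as the log2 fold change in HepG2 minus that in Huh7, in 1 fit over all 12 libraries. Of 31 members tested, 12 differed, 5 with a higher and 7 with a lower value in HepG2. That is 38.7% of the members, against 21.5% of all 15668 genes (9.88% higher and 11.7% lower) and 26.2% of protein-coding genes. VDR had the largest difference, -2.66 ± 0.529 (adjusted p = 0.00326), followed by NR0B2 at -1.45 ± 0.202 (adjusted p = 0.000339) and NR1I2 at -1.38 ± 0.347 (adjusted p = 0.0119). For VDR and NR0B2 the difference joined a lower level in HepG2 to a higher one in Huh7, whereas NR1I2 was higher in both lines. RARA at -1.05 ± 0.17 (adjusted p = 0.000895) and RXRA at -0.96 ± 0.137 (adjusted p = 0.000393) had the larger increase in Huh7. NR5A2 differed by -0.80 ± 0.151 (adjusted p = 0.00226) and THRA by -0.61 ± 0.19 (adjusted p = 0.0341).

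On the positive side, NR6A1 differed by 0.70 ± 0.0975 (adjusted p = 0.000335) and THRB by 0.60 ± 0.112 (adjusted p = 0.00222), both being called lower in Huh7. PPARG differed by 0.56 ± 0.182 (adjusted p = 0.0428), likewise lower in Huh7. NR3C1 differed by 0.53 ± 0.102 (adjusted p = 0.00265) and NR1H4 by 0.34 ± 0.111 (adjusted p = 0.0426), with the higher values in HepG2. The differences of NR1H4, THRA and PPARG were near the threshold, and each was lost when any 1 of the 6 Huh7 libraries was left out, with adjusted p of 0.0525 to 0.102. Among the HepG2 libraries, the call of NR1H4 depended on Ctrl-siRNA replicate 2 (adjusted p = 0.0922 without it) and UBL5 siRNA replicates 1 and 3 (0.0838 and 0.0828). That of THRA depended on UBL5 siRNA replicates 1 and 3 (0.0661 and 0.0558), and that of PPARG on Ctrl-siRNA replicates 1 and 2 (0.0875 and 0.0692) and UBL5 siRNA replicate 3 (0.0874). The other 9 differences were called in every fit that left out 1 library. NR1D1 and PPARD, at -0.76 and -0.55 (adjusted p = 0.197 and 0.0881), passed with the replicate number as a block (-0.67 and -0.54, adjusted p = 0.0373 and 0.0201) and without HepG2 Ctrl-siRNA replicate 1 (-1.02 and -0.70, 0.0412 and 0.016). PPARD also passed without HepG2 UBL5 siRNA replicate 2 (-0.71, adjusted p = 0.0286), and NR1H2 without HepG2 UBL5 siRNA replicate 3 (0.54, 0.0246). When HepG2 Ctrl-siRNA replicate 3, the library that stands apart, was left out, NR1D2 (0.44, adjusted p = 0.0343), NR1H2 (0.50, 0.0367), NR3C2 (1.93, 0.0158) and RARG (-1.52, 0.00299) passed. NR3C2 was too low to be tested in HepG2 alone and entered this fit through its Huh7 counts. Its HepG2 side then rests on 7, 4 and 4 counts with UBL5 siRNA against 15 and 11 with Ctrl-siRNA.

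**Figure D4:**
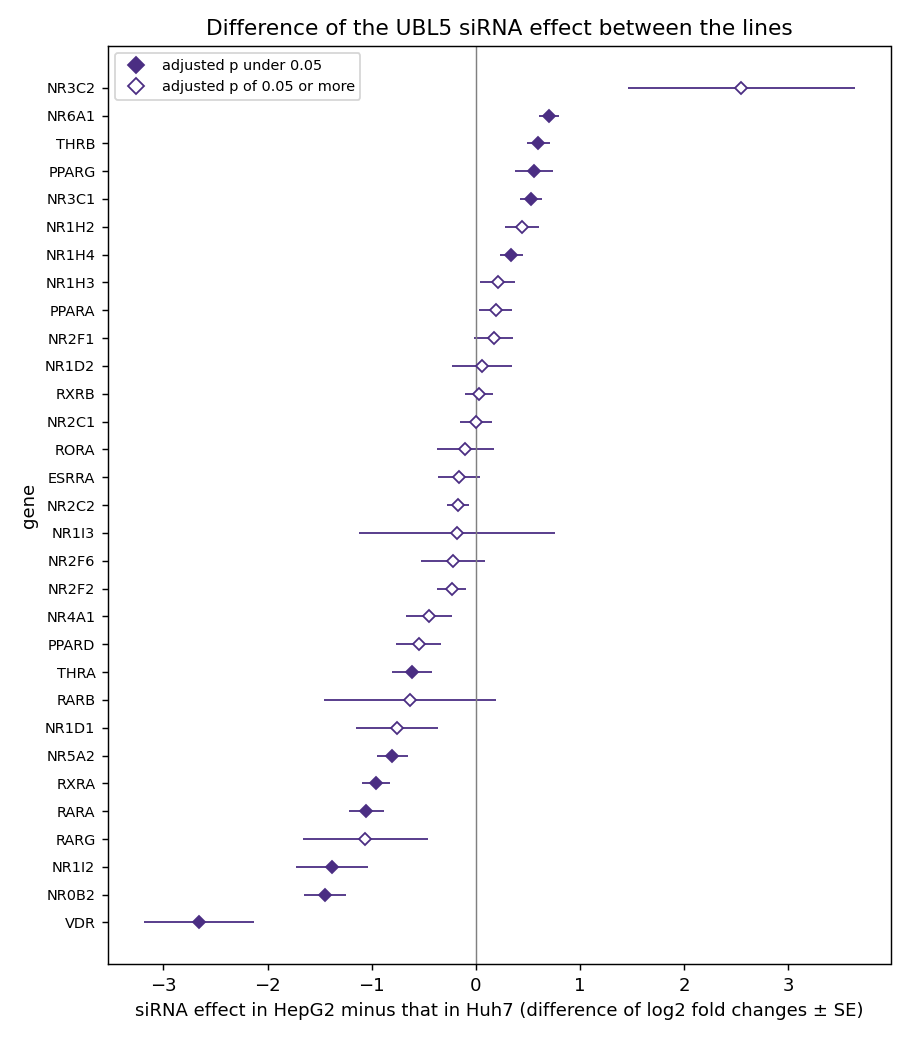
Difference of the siRNA effect between the lines for the 31 receptors listed for both, as the log2 fold change in HepG2 minus that in Huh7 with its standard error. Filled diamonds passed an adjusted p of 0.05. VDR lies lowest at -2.66 and NR6A1 highest of the filled ones at 0.70, while NR3C2 at 2.55 has an adjusted p of 0.116.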

How the data were processed

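RNA was sequenced as stranded mRNA libraries in 50-base single reads from 12 samples. Per the labels and the methods of the study, the authors used bcl2fastq for demultiplexing, FastQC 0.11.9 for read quality, STAR 2.7.6a for alignment (GRCh38) and featureCounts for gene counts. The annotation and strand setting of featureCounts are not given in the sources used here. The deposited tables hold raw counts per gene, in separate files for genes that were higher and lower in each line, and were joined. Their columns of mean normalized counts, log2 fold changes, errors, statistics and p-values from DESeq2 1.30.0 hold the authors' comparison and were not used. All 12 count columns were matched to samples.

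Genes were filtered with filterByExpr (minimum count 10, minimum total 15), scaled by TMM and compared in edgeR 4.0.16 (R 4.3.3) by its quasi-likelihood F test, within each line (15755 genes in HepG2, 16965 in Huh7) and over all 12 libraries for contrasts between lines (15668 genes). P-values were adjusted by Benjamini-Hochberg over all genes tested, with a threshold of 0.05, and the SE is the absolute log2 fold change divided by the square root of F. Levels are CPM, and levels between genes are CPM per kb of GENCODE 44 exon. Shared exon bases are those covered by exons of any other gene on either strand, and the gene named has the largest overlap. GENCODE 44 held 99.79% of the HepG2 identifiers and 99.8% of those of Huh7. Coordinates count from 1. Promoter sequences are from RefSeq. For genes with many reads the precision is set by the spread between libraries, and for those with few also by depth.

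The members, lists and tests were chosen with earlier results of these data known. Library values are given for members called in either line with an absolute log2 fold change of at least 0.5 there and for members whose effect differed between the lines, and up to 4 genes with the smallest adjusted p for each other list, of which some are not reported here. These lists were other nuclear receptors, coactivators, corepressors, chaperones, ligand supply and clearance, targets of the receptor classes, clock partners and cell type markers. Same-numbered HepG2 libraries deviated together from their group means (Pearson r over 10732 genes of 0.384, 0.28 and 0.295), so values with the replicate number as a block stand beside HepG2 results whose call they change. In Huh7 the same check gave 0.422, 0.0416 and 0.543. The alternatives were DESeq2 size factors, the DESeq2 1.42.0 test, no filter, the replicate block, all 12 libraries in one fit and leaving out each library. Scripts were tested on simulated data. No library duplicated another.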

Additional observations from a re-analysis of the deposited data

Results flagged for a closer look

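In 12 receptors the effect of UBL5 siRNA differed between the lines by a test of the difference itself, the log2 fold change in HepG2 minus that in Huh7, among 31 tested. That is 38.7% of the members, against 21.5% of all genes and 26.2% of protein-coding genes. The difference was negative for VDR (-2.66), NR0B2 (-1.45), NR1I2 (-1.38), RARA (-1.05), RXRA (-0.96), NR5A2 (-0.80) and THRA (-0.61). It was positive for NR6A1 (0.70), THRB (0.60), PPARG (0.56), NR3C1 (0.53) and NR1H4 (0.34). The differences of NR1H4, THRA and PPARG were each lost when any 1 Huh7 library was left out. VDR, NR0B2 and NR5A2 combine a lower level in HepG2 with a higher one in Huh7, called in both lines. The HepG2 calls of VDR and NR5A2 and the Huh7 call of NR5A2 depended on single libraries. The lines also differed in the control level of most of the 12: VDR, NR0B2, NR1I2, RARA and THRA were higher in control HepG2 cells (log2 HepG2 over Huh7 of 1.08, 3.0, 5.81, 0.37 and 1.38), and RXRA, NR5A2, PPARG and NR1H4 were lower (-0.41, -3.32, -0.32 and -1.03). NR6A1, THRB and NR3C1 did not pass that test (0.10, -0.02 and -0.08). The comparison of the control levels called 63.7% of all genes and 71.9% of protein-coding genes. The control difference of RARA did not pass without Huh7 Ctrl-siRNA replicate 1 (0.30, adjusted p = 0.0695), nor that of VDR without Huh7 Ctrl-siRNA replicate 3 (0.80, 0.0809). That of PPARG did not pass without HepG2 Ctrl-siRNA replicate 1 or 2 or any 1 Huh7 library (adjusted p = 0.0617 to 0.189). The part of the control level in the differences was not tested. Both comparisons use the same Ctrl-siRNA libraries and so are not independent of each other.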

How the results depend on the processing

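The values of the 33 receptors, their counts and their medians were recomputed under each alternative, and no called value of a receptor turned its direction. NR4A2 and ESR1 have no value in the fit over 12 libraries, and the target, coregulator and marker lists were not recomputed. With all 12 libraries in one fit the HepG2 count of members called was 14 of 31 (7 higher and 7 lower), in place of 8 of 29, and the Huh7 count was 19 of 31. Over all genes that fit called 49.4% in HepG2, in place of 36.7%, and 54.4% in Huh7, in place of 71.3%. NR3C2 and RARB, too low to be tested in HepG2 alone, are among the 31. With the replicate number as a block the HepG2 median log2 fold change was 0.05 and the count 11, the Huh7 count was 25, the interaction count 14 and the control comparison 23. The block fits called 40.8%, 74.7%, 27.7% and 63.8% of all genes in the same order. For the interaction the block was the replicate within its line. For the control comparison the same number in both lines was 1 block, though nothing in the labels links those libraries. In Huh7 the pairing was not established: replicates 1 and 3 correlated at 0.422 and 0.543 with their own numbers, but replicate 2 at 0.0416 with its own and at 0.0818 with another. DESeq2 called 10 members in HepG2, 24 in Huh7 and 13 between the lines, and 40%, 65.8% and 24.7% of all genes. Leaving out 1 library gave 5 to 12 members called in HepG2 with a median of -0.03 to 0.07, and 23 to 25 in Huh7 with a median of -0.05 to 0.04. It gave 9 to 16 for the difference between the lines and 20 to 24 for the control comparison. Over all genes, leaving out 1 library gave 23.7% to 45% called in HepG2 and 65.4% to 69.2% in Huh7. The shares were 15.6% to 27.4% for the difference between the lines and 57.7% to 67.7% for the control comparison. The HepG2 calls of VDR, NR1I2, NR5A2 and RORA, the Huh7 calls of RORA, ESR1 and NR5A2, and the differences of NR1H4, THRA and PPARG depended on single libraries. NR1H3, RARG and RORA also lost their Huh7 calls in the fit over 12 libraries (adjusted p = 0.125, 0.0829 and 0.0518). Depth limits VDR, NR1I3, NR3C2, RARB and ESR1, and NR1I2 in Huh7, which rest on few reads.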

Other observations

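Among the coregulators that receptors recruit, most of those called were higher with UBL5 siRNA. Of 19 coactivators, 9 were higher and 1 lower in HepG2 (median log2 fold change 0.13), and 13 were higher and 4 lower in Huh7 (median 0.44), where 36.7% and 71.3% of all genes were called. MED1, the Mediator subunit that binds receptors, rose by 1.01 in HepG2 and 1.10 in Huh7 (adjusted p = 0.000204 and 2.35e-09). The arginine methyltransferase CARM1 rose by 0.50 and 0.81 (adjusted p = 0.02 and 8.71e-08) and the acetyltransferase EP300 by 0.36 and 0.62 (adjusted p = 0.0451 and 2.99e-07). The remodeller ATPase SMARCA4 had -0.08 in HepG2 (adjusted p = 0.557) and rose in Huh7 (0.70, adjusted p = 9.44e-08). Of 15 corepressors, 6 were higher and 4 lower in HepG2 (median 0.10), and 11 were higher and 2 lower in Huh7 (median 0.30). Called corepressors made up 66.7% in HepG2 and 86.7% in Huh7. NRIP1, also in this list, fell in both lines and is given in the report. The demethylase KDM1A rose by 0.99 and 1.42 (adjusted p = 0.000102 and 1.29e-09), LCOR by 1.08 and 1.07 (adjusted p = 0.000487 and 6.96e-09) and the scaffold SIN3A by 0.48 and 0.91 (adjusted p = 0.00833 and 1.62e-08), while RBL2 fell by 0.76 and 1.06 (adjusted p = 0.000644 and 2.44e-08).

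Of 10 receptor chaperones, 1 was higher and 4 lower in HepG2 (median -0.14), and 5 were higher and 1 lower in Huh7 (median 0.13). HSP90AA1 rose in both lines (0.38 and 0.66, adjusted p = 0.00762 and 4.97e-06), and the cochaperones STIP1, DNAJB1 and FKBP4 rose in Huh7 (0.56, 0.56 and 0.43, adjusted p = 1.85e-05, 3.86e-05 and 8.7e-05). Of 24 genes of ligand supply and clearance, 19 were tested in each line, with 5 higher and 3 lower in HepG2 (median 0.26) and 10 higher and 5 lower in Huh7 (median 0.28). The plasma retinol carrier RBP4 rose by 1.05 and 0.53 (adjusted p = 6.26e-05 and 2.77e-06). FABP1, also in this list, is given in the report. Of 15 other nuclear receptors, 4 were tested in HepG2 (2 higher, median 0.32) and 8 in Huh7 (1 higher and 6 lower, median -0.88). HNF4A, the hepatocyte regulator, rose by 0.29 and 0.75 (adjusted p = 0.0412 and 7.59e-08). NR5A1, the steroidogenic relative of NR5A2, rose in HepG2 (0.47, adjusted p = 0.00662) and fell in Huh7 from a low level (-1.01, adjusted p = 0.0136), and in Huh7 the low-level ESRRB and RORB fell (-1.0 and -1.31, adjusted p = 0.00473 and 0.00492). Called chaperones made up 50% in HepG2 and 60% in Huh7, and called genes of ligand supply and clearance 42.1% and 78.9%. For the other nuclear receptors tested the shares were 50% and 87.5%, against 36.7% and 71.3% of all genes.

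Among cell type markers, 5 of the 11 hepatocyte markers were higher and 1 lower in HepG2, and 3 were higher and 3 lower in Huh7. That is 54.5% in each line, against 36.7% of all genes in HepG2 and 71.3% in Huh7. Of 6 fibroblast markers, 5 were listed in HepG2 (10.2 to 22 CPM with UBL5 siRNA and 7.7 to 14 CPM with Ctrl-siRNA) and 6 in Huh7 (95.5 to 105 and 71 to 76.6 CPM). LYZ made up nearly all of the leukocyte sums given in the report, and fell in both lines (-0.75 and -0.74, adjusted p = 0.00194 and 3.55e-08). Their part in the receptor results was not tested.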
